A study of Mus musculus with 4 samples.

Results

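The respiratory chain was followed through the transcripts of its subunits in single smooth muscle cells of the mouse aorta. Genes were taken by name: symbols starting with Nduf, Sdha to Sdhd, Uqcr, Cox4 to Cox8 or Atp5 in the nuclear genome, and the mitochondrially encoded mt-Nd, mt-Co, mt-Cytb and mt-Atp genes. Of 32287 features, 111 carried such a name, and 105 of them had at least 100 UMIs (unique molecular identifiers, which count captured transcripts) in every library. Of these, 92 are nuclear and 13 mitochondrial. The nuclear ones comprise 80 subunit or subunit-like genes and 12 assembly factors that share the Nduf or Sdh prefix. The member with the fewest UMIs in any single library was Cox6b2, with 642 and 481 in the KO libraries and 173 and 253 in the WT libraries. The name-matched gene just under the minimum was Cox7a1, with 202 and 166 UMIs in the KO libraries and 72 and 91 in the WT libraries. The remaining genes left out, Ndufa4l2, Cox7b2, Cox6a2, Cox8c and Cox8b, had at most 13 UMIs in any library.

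The KO mice carried floxed alleles of both TGF-beta receptor genes, Tgfbr1 and Tgfbr2, together with Myh11-CreERT2, a recombinase that tamoxifen activates in cells using the Myh11 promoter, and mT/mG, a reporter that turns green on recombination. The WT mice carried the same Cre and reporter without the floxed alleles, so tamoxifen, recombinase and reporter were common to both genotypes. All mice were C57BL/6J and 12 weeks old, and had received tamoxifen for 5 days at 1 mg a day from 4 weeks or 2 mg a day from 11 weeks of age. Neither the course each library received nor its number of mice is labelled, so p-values measure only the spread between these libraries, which may be technical. There were 2 KO and 2 WT libraries of GFP-positive cells sorted from the ascending aorta and arch, made with 3′ single-cell chemistry. Cre acts where Myh11 is active, so the sort holds recombined smooth muscle cells and not the whole aortic wall.

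Complexes I and II pass electrons from NADH and succinate to ubiquinone, complex III passes them on to cytochrome c, and complex IV hands them to oxygen. Complexes I, III and IV pump protons across the inner mitochondrial membrane, and complex V, the ATP synthase, uses the gradient to make ATP. Most subunits are nuclear and imported, whereas a small core is transcribed from mitochondrial DNA as long polycistronic RNAs that are cut into shorter messages. Contractile smooth muscle draws on both glycolysis and oxidative phosphorylation.

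After a filter on cells, 4252 (KO 1), 3522 (KO 2), 2429 (WT 1) and 3265 (WT 2) cells remained, with 35255748 to 59203071 UMIs per library and medians of 13898 to 15383 UMIs per cell. The 13 mitochondrial genes held 3.82% (KO 1), 3.92% (KO 2), 4.64% (WT 1) and 3.89% (WT 2) of these UMIs. WT 1 stood apart from the other 3 libraries, so results for mitochondrial genes are also given without it. Tgfbr1 had 73.3 and 76.1 CPM (counts scaled to a common library total) in KO libraries, against 80.8 and 82.3 CPM in WT libraries, and Tgfbr2 had 46.5 and 47.3 CPM in KO libraries, against 51.6 and 45.1 CPM in WT libraries. Neither passed the test, and 3′ tags outside a deleted segment do not show whether a receptor gene was recombined. Smooth muscle markers summed to 51022 and 48011 CPM in KO libraries and 45281 and 47310 CPM in WT libraries, so the labelled cell type was present. Of these 7 markers 1 was called higher and 1 lower. Myh11 had 7194 and 7028 CPM in KO libraries, against 5207 and 5417 CPM in WT libraries. Pairs of libraries shared 3 to 6 cell barcodes.

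In KO cells the nuclear members were on balance slightly higher and the mitochondrial members lower, the second resting largely on 1 WT library. Among 92 nuclear members, 13 were higher and 1 was lower in KO cells, and among 13 mitochondrial members 3 were lower and 0 were higher (edgeR's quasi-likelihood test on UMI sums per library, Benjamini-Hochberg adjusted p under 0.05). The 0 mitochondrial members higher remained 0 at an unadjusted p under 0.05 and by DESeq2. Of all 14474 genes tested, 9.17% were called higher and 11.1% lower, 20.3% in all. The share of nuclear members called higher, 14.1%, was somewhat above the 9.17% of all genes. It was near the 12.5% of other genes averaging 100 CPM or more. It was under the 18.1% of those whose longest transcript was under 1500 bases. The median log2 difference of the nuclear members was 0.13 and 84 of the 92 values were positive, beside a median of 0.00 over all genes tested. Both KO libraries lay above both WT libraries for 69 nuclear members (75%), against 31.3% of all genes, and both lay below for 5, against 32.3% of all genes. Differences were small: 12 of the 13 members called higher had log2 differences between 0.20 and 0.35, and the exception was Cox6b2 with 1.00. The count of 13 depended on the libraries and the tool: it fell without WT 1, KO 1 or WT 2 and rose without KO 2. The log2 ratio of the nuclear members' summed CPM stayed between 0.109 and 0.190 when 1 library was left out. DESeq2 called 25 nuclear members higher, while over all 14474 genes it called 1144 higher, against 1327 by edgeR.

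**Figure D1:**
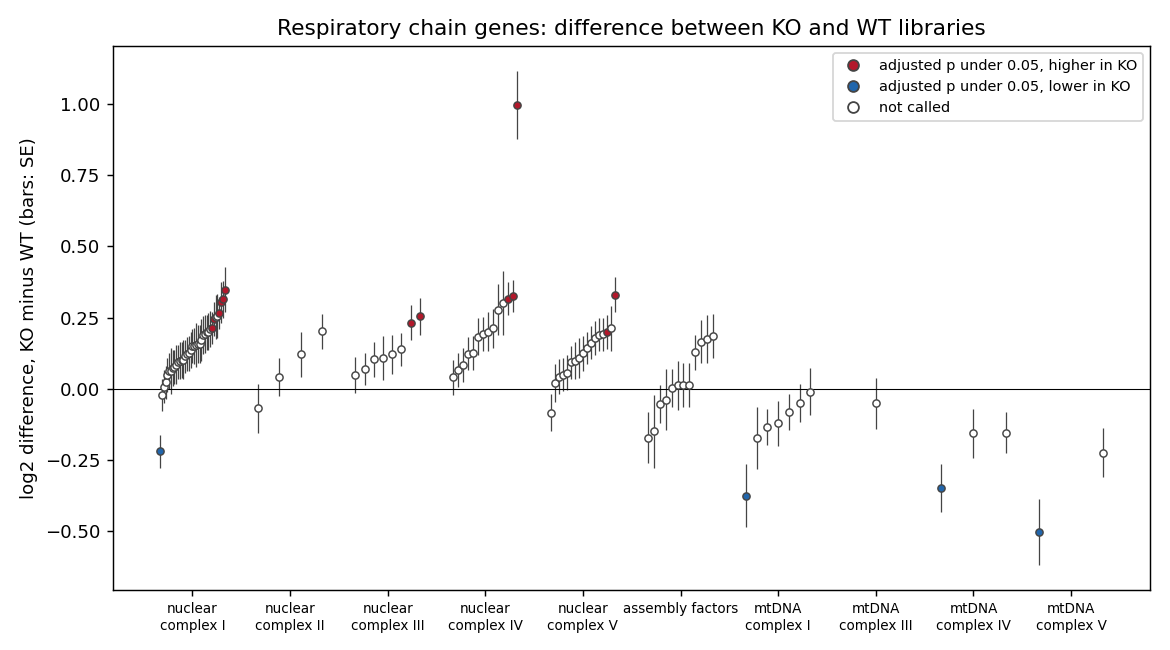
Log2 difference between KO and WT libraries (vertical axis, bars show the standard error) for each of 105 respiratory chain genes, grouped by complex and by the genome that encodes them (mtDNA, mitochondrial DNA). Filled points passed an adjusted p of 0.05. Nuclear members sit mostly a little above 0, Cox6b2 stands alone at 1.00, and all 13 mitochondrial members sit below 0.

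Ribosomal proteins and other abundant genes with short transcripts leaned the same way. Among 83 cytosolic ribosomal proteins, 13 were called higher and 1 lower, with a median log2 difference of 0.12 and both KO libraries above both WT libraries for 67. Among 315 other genes averaging 100 CPM or more whose longest transcript was under 1500 bases, 18.1% were called higher and 7.30% lower, and both KO libraries lay above both WT libraries for 56.2%. Among all 1483 other genes averaging 100 CPM or more, 12.5% were called higher and 19.96% lower, the median log2 difference was 0.02, and both KO libraries lay above both WT libraries for 39.4%. The longest transcript had a median length of 1170.5 bases in nuclear members, against 3205 bases in all tested genes. KO 1 was above KO 2 for 89 of 92 nuclear members and for 75 of the 83 ribosomal proteins. What transcript length, abundance and the difference between the KO libraries contribute to the members' values was not tested.

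Complex I, the NADH dehydrogenase, had 37 nuclear members, of which 6 were higher and 1 was lower. Ndufb8, an accessory subunit of the membrane arm, had 275 and 255 CPM in KO libraries, against 213 CPM in each WT library. Ndufa11, another membrane arm subunit, had 448 and 386 CPM in KO libraries, against 322 and 333 CPM in WT libraries. Ndufs8, a core iron-sulfur subunit of the path to ubiquinone, had 121 and 110 CPM in KO libraries, against 91.5 and 95.2 CPM in WT libraries. For all 3 genes every KO library was above every WT library. The log2 differences were 0.32 for Ndufb8 (SE 0.06, adjusted p = 0.0117), 0.35 for Ndufa11 (SE 0.08, adjusted p = 0.0185) and 0.30 for Ndufs8 (SE 0.07, adjusted p = 0.0210). Ndufb9, Ndufb11 and Ndufa7, which are accessory subunits, also rose, with log2 differences of 0.27, 0.25 and 0.21. Ndufb8 and Ndufb9 share exon sequence on the same strand with the gene models Gm20538 and Gm49356, so their counts are less certain. Without WT 1 the calls for Ndufb8, Ndufa11, Ndufs8, Ndufb9 and Ndufb11 were lost; those for Ndufa11, Ndufs8 and Ndufb11 were also lost without KO 1, and all but that for Ndufa11 without WT 2. The call for Ndufa7 was lost without KO 1 and without either WT library.

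Against this direction, Ndufb3, an accessory subunit of the membrane arm, fell to 247.9 and 250.01 CPM in KO libraries, against 293 and 287 CPM in WT libraries (log2 difference -0.22, SE 0.06, adjusted p = 0.0336). It was the only nuclear member called lower, and it missed the threshold whichever library was left out. The other 30 complex I members were not called, and 35 of all 37 had a positive value. Ndufv3, a small subunit of the NADH-oxidising end, came nearest with a log2 difference of 0.26 and an adjusted p of 0.0504. All 7 nuclear core subunits, which include those that carry the flavin and iron-sulfur centres, had both KO libraries above both WT libraries, and 1 of them was called.

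The region around the transcription start of Ndufb8 and of 2 complex IV genes is shown because these 3 called members differ in the known regulatory words that their start regions hold; they were picked after their values and windows were seen. Windows of 250 bases before to 50 bases after the start came from RefSeq (build GRCm38.p6), 5′ to 3′ on the gene's strand, for 78 of the 92 nuclear members. Short words were searched on both strands: TGCGCAT for NRF1, CCGGAAG for ETS factors such as GABPA, AAGATGG for YY1 and AAGGTCA for ERR receptors. Capitals mark matches.
Ndufb8, chr19:44555393-44555692, minus strand: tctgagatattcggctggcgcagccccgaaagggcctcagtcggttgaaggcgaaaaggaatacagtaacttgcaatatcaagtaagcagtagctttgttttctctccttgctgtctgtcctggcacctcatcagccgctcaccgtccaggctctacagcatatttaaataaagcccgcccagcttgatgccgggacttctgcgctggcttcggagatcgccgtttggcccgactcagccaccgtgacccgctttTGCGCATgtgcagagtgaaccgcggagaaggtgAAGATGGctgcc
Cox8a, chr19:7217567-7217866, minus strand: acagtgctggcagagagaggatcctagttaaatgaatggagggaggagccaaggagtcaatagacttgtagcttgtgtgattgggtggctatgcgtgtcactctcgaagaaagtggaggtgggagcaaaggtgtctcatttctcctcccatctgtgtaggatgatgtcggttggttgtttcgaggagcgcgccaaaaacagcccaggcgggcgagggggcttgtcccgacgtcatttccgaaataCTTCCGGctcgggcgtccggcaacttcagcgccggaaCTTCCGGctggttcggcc
Cox6b2, chr7:4753045-4753344, minus strand: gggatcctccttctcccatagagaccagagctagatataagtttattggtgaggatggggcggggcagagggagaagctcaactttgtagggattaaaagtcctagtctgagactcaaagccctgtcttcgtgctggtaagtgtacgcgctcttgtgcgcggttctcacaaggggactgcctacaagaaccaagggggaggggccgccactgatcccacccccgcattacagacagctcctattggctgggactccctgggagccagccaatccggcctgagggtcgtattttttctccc
The Ndufb8 window held 1 NRF1 word starting at base 5 and 1 YY1 word starting at base 38 after the start. The Cox8a window held the reverse complement of the ETS word at base -5 and again at base 32, and the Cox6b2 window held none of the words. Among 83 windows of nuclear members the ETS word stood in 26.5%, against 8.86% of all 32851 windows, and the NRF1 word in 10.8%, against 2.85%. The YY1 word stood in 14.5% of the members' windows, against 6.34% of all windows, and the ERR word in 9.64%, against 4.72%. Among 10 genes called higher that have a window, 3 held the ETS word, 2 the YY1 word, 1 the NRF1 word and 0 the ERR word. A match is a description of the letters and does not show that a factor binds there.

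Complex II, succinate dehydrogenase, is wholly nuclear, and 0 of its 4 members passed edgeR's test, with 1 at an unadjusted p under 0.05 and 1 called by DESeq2. This was Sdha, the flavoprotein that oxidises succinate, with 98.6 and 98.5 CPM in KO libraries, against 86.1 and 85.3 CPM in WT libraries (log2 difference 0.20, adjusted p = 0.0535). Sdhb, the iron-sulfur subunit, and the membrane anchors Sdhc and Sdhd overlapped between genotypes, with log2 differences of 0.12, 0.04 and -0.07.

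Complex III, the cytochrome bc1 complex, had 8 nuclear members, of which 2 were called, both higher. Uqcrq, a small membrane subunit, had 391 and 360 CPM in KO libraries, against 314 and 316 CPM in WT libraries (log2 difference 0.25, SE 0.06, adjusted p = 0.0276). Uqcr11, the smallest subunit, had 520 and 499 CPM in KO libraries, against 445 and 423 CPM in WT libraries (log2 difference 0.23, SE 0.06, adjusted p = 0.0305). Both calls were lost without KO 1 and without either WT library. Both KO libraries were above both WT libraries for 7 of the 8, all but the core protein Uqcrc1. The catalytic Rieske protein Uqcrfs1 differed least, with a log2 difference of 0.05 (SE 0.06).

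Complex IV, cytochrome c oxidase, had the largest median difference of the nuclear complexes, 0.20 over 14 members, and both KO libraries were above both WT libraries for 13 of them. Cox6c, a small membrane subunit, had 1391 and 1334 CPM in KO libraries, against 1117 and 1070 CPM in WT libraries (log2 difference 0.32, SE 0.06, adjusted p = 0.00631). Cox8a, the ubiquitous form of the smallest subunit, had 949 and 911 CPM in KO libraries, against 754 and 730.0 CPM in WT libraries (log2 difference 0.33, SE 0.06, adjusted p = 0.00580). The KO and WT libraries did not overlap for either gene, and with Cox6b2 they were the only members called in all 15 alternative fits. The other 11 members missed the threshold, among them Cox4i1, Cox5a, Cox6a1 and Cox6b1 with log2 differences of 0.19, 0.21, 0.28 and 0.20 and adjusted p from 0.0573 to 0.0751.

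Cox6b2, a subunit isoform known from testis, had the largest difference of all 105 members. It had 10.8 and 9.35 CPM in KO libraries, against 4.96 and 5.14 CPM in WT libraries, with no overlap (log2 difference 1.00, SE 0.12, adjusted p = 0.00103). Its ubiquitous counterpart Cox6b1 had 448 and 409 CPM in KO libraries, against 362 and 383 CPM in WT libraries, a log2 difference of 0.20. Cox6b2 therefore made up 2.36% and 2.23% of the pair in KO libraries, against 1.35% and 1.32% in WT libraries. Cox7a1, the heart and muscle isoform that fell just short of the UMI minimum, showed the same order, with 0.593% of the Cox7a1 and Cox7a2 sum in each KO library, against 0.386% and 0.348% in WT libraries. Its log2 difference was 0.77 (SE 0.17, adjusted p = 0.0164), a call that was lost without KO 1, without WT 2 and when cells were thinned to 5000 UMIs. Cox4i2, the isoform of Cox4i1 known from hypoxia sensing in lung, made up 2.23% and 1.92% of its pair in KO libraries, against 1.96% and 1.91% in WT libraries, so its shares overlapped. Thinning reduced the KO minus WT difference in the Cox7a1 share to 0.141 percentage points, against 0.226 over all cells. The isoforms Cox6a2, Cox8b and Ndufa4l2 were at or near 0 UMIs in every library.

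**Figure D2:**
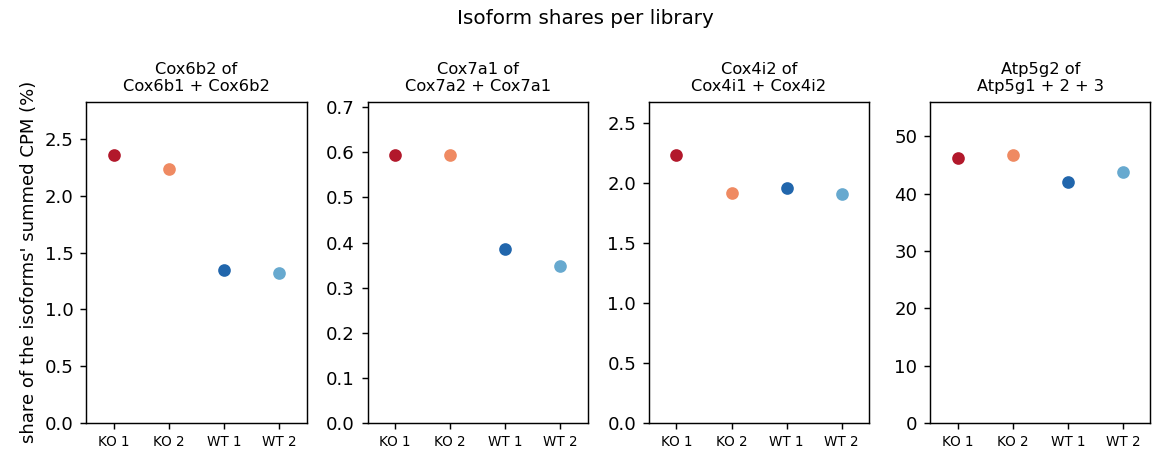
Share of the summed CPM of each subunit's isoforms held by 1 isoform (vertical axis, percent) in the 2 KO and 2 WT libraries (horizontal axis, 1 point per library). The Cox6b2 and Cox7a1 shares were higher in both KO libraries, the Cox4i2 share overlapped, and the Atp5g2 share was higher in both KO libraries.

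Complex V, the ATP synthase, had 17 nuclear members, and 2 were called, both higher. Atp5d, the delta subunit of the central stalk, had 334 and 316 CPM in KO libraries, against 254 and 263 CPM in WT libraries (log2 difference 0.33, SE 0.06, adjusted p = 0.00791). Atp5f1, the b subunit of the peripheral stalk, had 276 and 269 CPM in KO libraries, against 234 and 240.1 CPM in WT libraries (log2 difference 0.20, SE 0.06, adjusted p = 0.0492). The call for Atp5f1 stood in only 6 of 15 alternative fits, while that for Atp5d stood in 14 and was lost without WT 1 (adjusted p = 0.0587).

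The catalytic beta subunit Atp5b and the gamma subunit Atp5c1 were not called, with log2 differences of 0.10 and 0.04. The c ring of the enzyme is built from 3 genes that encode the same mature peptide. Atp5g2 made up 46.3% and 46.7% of the trio in KO libraries, against 42.1% and 43.9% in WT libraries. Atp5g3 made up 22.1% and 23.0% in KO libraries, against 25.9% and 24.1% in WT libraries, and Atp5g1 made up 31.7% and 30.3% in KO libraries, against 32.0% in each WT library. None of the 3 genes was called by edgeR, with adjusted p of 0.0680 for Atp5g2, 0.405 for Atp5g3 and 0.857 for Atp5g1, and DESeq2 called Atp5g2.

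The 12 assembly factors, which build complexes I and II but are not part of them, had differences around 0. None was called by edgeR or DESeq2 and 1 had an unadjusted p under 0.05, that of Ndufaf7 with a log2 difference of 0.19 (adjusted p = 0.132). Both KO libraries were above both WT libraries for 4 of the 12 and below for 2, and the median log2 difference was 0.01. The difference between these factors and the subunits was not tested.

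Summed by complex, the nuclear members were higher in both KO libraries for each of the 5 complexes. All nuclear members together held 29618 and 28057 CPM in KO libraries, against 25987 and 25980 CPM in WT libraries. The KO mean was 111% of the WT mean, and the WT libraries were almost identical while the KO libraries differed. Complex IV had the largest ratio, with 8145 and 7652 CPM in KO libraries, against 6892 and 6857 CPM in WT libraries, a log2 ratio of 0.20. Log2 ratios were 0.14 for complex I, 0.09 for complex II, 0.15 for complex III and 0.12 for complex V. The sums carry no p-value, since an exact permutation test of 2 libraries against 2 cannot go below 0.3333.

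**Figure D3:**
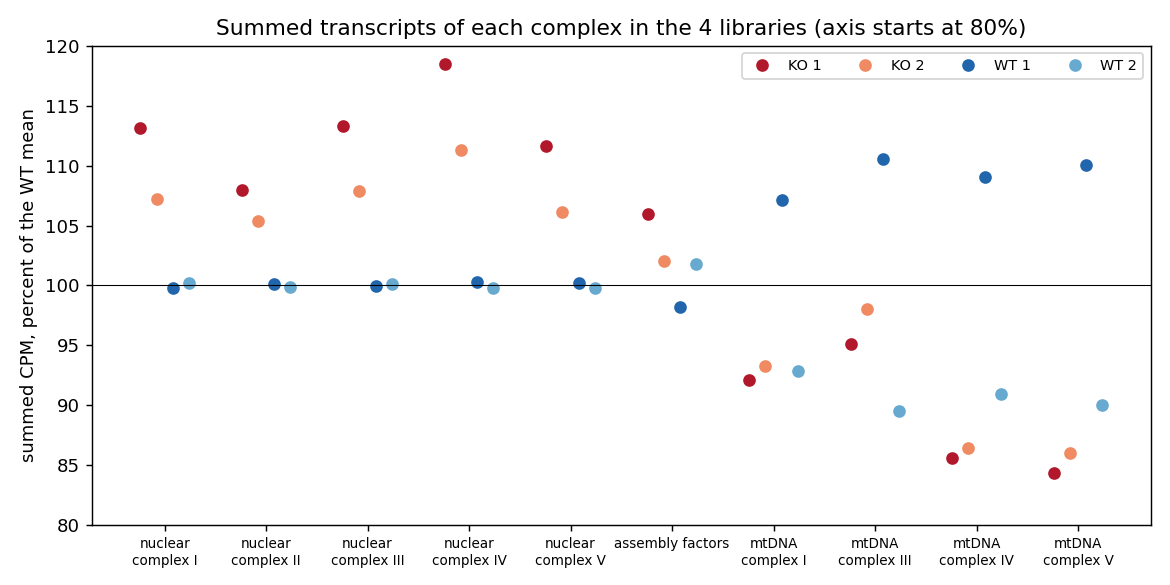
Summed CPM of each complex in the 4 libraries as a percent of the WT mean (vertical axis, which starts at 80%), 1 point per library, by encoding genome. In nuclear complexes the KO libraries reach 105% to 118% and the WT libraries stay at about 100%. In mitochondrial complexes WT 1 reaches 107% to 111% and the other 3 libraries lie between 84.3% and 98.0%.

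All 13 mitochondrially encoded members had negative log2 differences, with a median of -0.15, and 3 passed the test. That share called lower, 23.1%, stood beside 11.1% of all genes. It was near the 19.96% of other genes averaging 100 CPM or more. The gene mt-Co2, which encodes the complex IV subunit that takes electrons from cytochrome c, had 4719 and 4974 CPM in KO libraries, against 6754 and 5591 CPM in WT libraries (log2 difference -0.35, SE 0.08, adjusted p = 0.0234). The short gene mt-Atp8, for a membrane subunit of complex V, had 176 and 204 CPM in KO libraries, against 301 and 238 CPM in WT libraries (log2 difference -0.50, SE 0.12, adjusted p = 0.0191). The complex I gene mt-Nd3 had 868 and 947 CPM in KO libraries, against 1326 and 1027 CPM in WT libraries (log2 difference -0.37, SE 0.11, adjusted p = 0.0488).

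In each of these the WT 1 library was highest and WT 2 lay closer to the KO libraries. WT 1 was above WT 2 for 12 of the 13 genes. All 3 calls were lost without WT 1 and also without KO 1, while 6 genes were called without WT 2. The log2 differences of mt-Co2, mt-Atp8 and mt-Nd3 were negative in all 15 alternative fits, and were -0.21, -0.33 and -0.18 where they were smallest. Genes at the other end of the list were close to 0: mt-Nd5 at -0.01, mt-Nd4 at -0.05 and mt-Cytb at -0.05, each overlapping between genotypes, and mt-Nd2, mt-Nd4, mt-Nd5 and mt-Cytb changed sign in at least 1 alternative. Both KO libraries were below both WT libraries for 6 of the 13 (46.2%): mt-Co1, mt-Co2, mt-Atp6, mt-Atp8, mt-Nd3 and mt-Nd6. This held for 32.3% of all genes and 35.1% of other genes averaging 100 CPM or more.

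**Figure D4:**
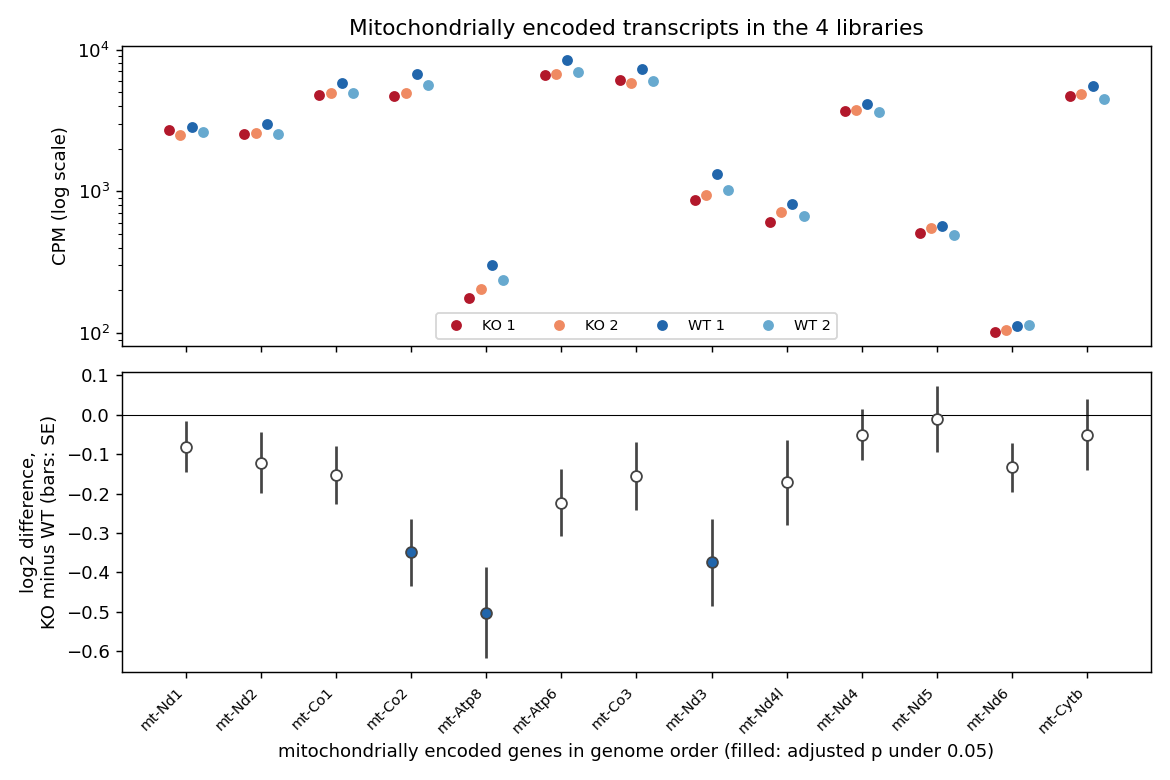
Upper panel: CPM (log scale) of the 13 mitochondrially encoded genes in genome order, 1 point per library. Lower panel: log2 difference between KO and WT with its standard error, filled where the adjusted p was under 0.05. WT 1 is the highest library for most genes, and mt-Co2, mt-Atp8 and mt-Nd3 are the filled points.

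Relative to the mitochondrial total, the 13 genes did not move by the same factor. The share of mt-Co2 was 12.4% and 12.9% of mitochondrial UMIs in KO libraries, against 14.4% and 14.2% in WT libraries, and the shares of mt-Atp8, mt-Atp6 and mt-Nd3 were also lower in both KO libraries. The share of mt-Cytb was 12.5% and 12.7% in KO libraries, against 11.7% and 11.4% in WT libraries, and those of mt-Nd4, mt-Nd5 and mt-Nd2 were also higher in both KO libraries. Shares of a whole are tied to each other, so these differences show unequal change only. Some of these genes share bases: mt-Atp8 and mt-Atp6 overlap by 43 bases and mt-Nd4l and mt-Nd4 by 7, so a read there belongs to both and those values are uncertain. Reads from nuclear copies of mitochondrial sequence cannot be told apart from these counts.

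The mitochondrial members together held 38043 and 38608 CPM in KO libraries, against 46927 and 39271 CPM in WT libraries. Both KO libraries were below both WT libraries, and WT 2 was close to them. The log2 ratio was -0.17, but -0.04 without WT 1 and -0.29 without WT 2, so most of the difference rested on WT 1. Mitochondrial complexes IV and V had log2 ratios of -0.22 and -0.23 with no overlap between genotypes, and complexes I and III had ratios of -0.11 and -0.05 with overlap. Without WT 1 these became -0.08 for both IV and V, -0.01 for I and 0.11 for III. The ratio of mitochondrial to nuclear members was 1.28 and 1.38 in KO libraries, against 1.81 and 1.51 in WT libraries. Its log2 ratio was -0.32, and -0.18 without WT 1.

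In single cells thinned to 5000 UMIs, the nuclear members took a median of 2.96% (KO 1) and 2.88% (KO 2) of a cell's UMIs, against 2.58% in each WT library. The medians without thinning were 2.97% and 2.87% in KO libraries and 2.58% in each WT library. Of KO cells, 78.0% in KO 1 and 70.6% in KO 2 lay above the WT median of 2.58%, against 49.3% and 48.8% of WT cells. The middle 50% of cells spanned 2.64% to 3.30% in KO 1 and 2.52% to 3.22% in KO 2, against 2.28% to 2.90% in WT 1 and 2.28% to 2.89% in WT 2. For mitochondrial members the medians were 3.74% and 3.84% in KO libraries, against 4.6% and 3.86% in WT libraries. The proportion of cells above 4.23%, the mean of the 2 WT library medians, was 32.3% and 35.9% in KO libraries, against 63.2% in WT 1 and 34.9% in WT 2. The cell filter removed cells above 10% mitochondrial UMIs, a limit that acts on these same genes.

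**Figure D5:**
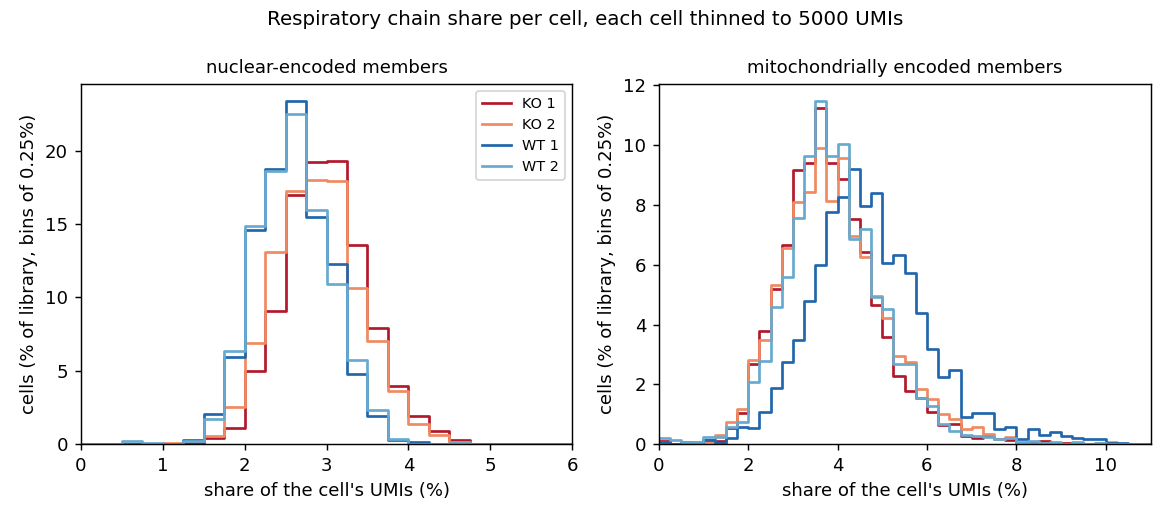
Distribution over cells of the share of UMIs held by nuclear (left) and mitochondrial (right) respiratory chain genes (horizontal axis, percent), each cell thinned to 5000 UMIs, with the percent of the library's cells on the vertical axis. Both KO libraries sit to the right of both WT libraries on the left, with medians of 2.96% and 2.88% against 2.58%. On the right only WT 1 is shifted, with a median of 4.6%.

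Between cells of 1 library, nuclear members varied little more than counting allows: over 71 members with a mean of at least 0.5 UMI the median variance to mean ratio was 1.04 and 1.05 in KO libraries and 1.03 in each WT library. Cox6c had ratios of 1.40 and 1.44 in KO libraries, against 1.23 and 1.21 in WT libraries, beside means of 7.03 and 6.90 UMIs per cell in KO libraries and 5.55 and 5.35 in WT libraries. The ratio grows with the mean, so its excess over 1 was also divided by the mean. This gave 0.0571 and 0.0641 for Cox6c in KO libraries, against 0.0413 and 0.0386 in WT libraries. For Ndufa11 it gave 0.132 and 0.103 in KO libraries, against 0.0820 and 0.0671 in WT libraries. These 2 genes were named after their values were seen. Over the 71 nuclear members both KO libraries were above both WT libraries for 23 and below for 7, and 41 overlapped. Ndufb9, called higher in KO cells, was among the 7. The same counts over all genes were not made, so 23 and 7 cannot be set against a background or read as particular to these members. The mitochondrial genes had median ratios of 2.37 and 2.54 in KO libraries, against 2.42 and 2.17 in WT libraries. Divided by the mean, their median excess was 0.0924 and 0.105 in KO libraries, against 0.0938 and 0.0898 in WT libraries. For 7 of the 13 genes this excess was higher in both KO libraries, and for the other 6 it overlapped, again without counts over all genes.

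Other genes of the same pathways were read beside the members, with 9.17% of all genes tested called higher and 11.1% lower. Among 24 electron carriers and subunits outside the prefixes, 2 were higher (8.33%) and 2 lower (8.33%), shares under those of all genes. Etfb, which passes electrons from fatty acid oxidation toward ubiquinone (log2 difference 0.56, adjusted p = 0.00108), was higher. So was Gpd2, the glycerol phosphate dehydrogenase of the inner membrane (0.61, adjusted p = 0.00253). Coq8a, needed for ubiquinone synthesis, was lower (-0.72, adjusted p = 0.000795), and Coq10b, named after its value was seen, was lower too (-0.38). Among 39 assembly factors outside the prefixes, 2 were higher (5.13%), Cox20 (0.31) and Uqcc2 (0.22). By edgeR or DESeq2 0 were lower, with 1 lower at an unadjusted p under 0.05. The calls for Cox20 and Uqcc2 were lost without KO 1 and without either WT library.

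The tricarboxylic acid cycle, which supplies NADH and succinate, had 3 of 18 genes higher (16.7%), Idh2 (log2 difference 0.36), Suclg2 (0.24) and Mdh2 (0.21). None of these 3 calls stood without KO 1 or without WT 1. The transcriptional coactivator Ppargc1a, known as a driver of mitochondrial biogenesis, had 10.3 and 9.02 CPM in KO libraries, against 5.30 and 5.04 CPM in WT libraries (log2 difference 0.90, SE 0.12, adjusted p = 0.00154). It was the only one of 22 regulators called (4.55%), by edgeR and by DESeq2, and 6 of the 22 had positive values, with a median of -0.06. Among mitochondrial ribosomal proteins, 7 of 78 were higher, among them Mrpl54 (0.37), which is a share of 8.97% near the background of 9.17%. In the same fit 1 gene of 18 for mitochondrial RNA was higher (5.56%), Hsd17b10 (0.25). Of 12 carriers 1 was higher (8.33%), Slc25a5 (0.27), an adenine nucleotide translocase. Both Hsd17b10 and Slc25a5 lost their calls without KO 1 and without either WT library. In these 5 lists 0 genes were lower by edgeR or DESeq2, while at an unadjusted p under 0.05 this held for 1 gene of the cycle, 3 regulators, 1 gene for mitochondrial RNA, 0 carriers and 1 ribosomal protein. Of 29 genes for hypoxia response and glycolysis, 8 were higher (27.6%) and 4 were lower (13.8%), against 9.17% and 11.1% of all genes. Ldhb, a lactate dehydrogenase subunit, had 297 and 277 CPM in KO libraries, against 156 and 164 CPM in WT libraries (log2 difference 0.84). The lower ones, named after their values were seen, were Epas1 (-0.61), P4ha1 (-0.58), Pfkm (-0.33) and Hif1a (-0.25). Egln3, a prolyl hydroxylase that responds to hypoxia, and Vegfa, an angiogenic factor, were also higher, with 16.3 and 15.3 CPM in KO libraries, against 5.10 and 8.003 CPM in WT libraries, for Egln3 and a log2 difference of 0.84 for Vegfa.

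Marker genes of other cell types were summed in each library. Over all genes tested, 9.17% were called higher and 11.1% lower. The endothelial markers held 17.9 and 16.6 CPM in KO libraries and 15.6 and 18.5 CPM in WT libraries. Only 4 of the 7 passed the count filter and were tested. Egfl7, Vwf and Cdh5 were called higher and Pecam1 lower. Cdh5, the cadherin of endothelial junctions, had 30 and 31 UMIs in KO libraries and 0 and 0 UMIs in WT libraries. The fibroblast markers held 128 and 130 CPM in KO libraries and 134 and 155 CPM in WT libraries, with 3 of 7, Lum, Dpt and Cd34, called higher and Col14a1 called lower, and Schwann cell markers held 2.59 and 2.51 CPM in KO libraries and 4.5 and 3.82 CPM in WT libraries. Cardiomyocyte markers, of interest because heart muscle is rich in respiratory chain transcripts, summed to 80.5 and 70.0 CPM in KO libraries and 62.3 and 66.2 CPM in WT libraries. The test covered 5 of these 7 markers, with Actc1 and Tnni3 called higher and Ryr2 called lower. Of these, Actc1, a sarcomeric actin, had 29.9 and 26.1 CPM in KO libraries, against 0.487 and 0.609 CPM in WT libraries, while Myh6, a defining marker, had 115 and 20 UMIs in KO libraries and 1 and 17 UMIs in WT libraries. Leukocyte markers summed to 6.28 and 0.369 CPM in KO libraries and 0.803 and 0.406 CPM in WT libraries, and adipocyte markers stayed at or under 0.331 CPM, with 3 of 7, Ucp1 among them, at 0 in every library. The part of such cells in the members' differences was not tested. In 1 alternative, cells with at least 3 UMIs of endothelial, leukocyte, cardiomyocyte or adipocyte markers were left out. There 12 nuclear members were called higher, beside 1290 of all 14216 genes tested. Fibroblast and Schwann cell markers were not part of that filter. Chromosomes 4 and 9, which carry Tgfbr1 and Tgfbr2, held 6 members each, and none of these was called, beside 20.3% of all genes tested. The nearest members lay 7.07 Mb (Ndufb6) and 7.13 Mb (Uqcrc1) from the floxed genes. So few members say little about the floxed loci.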

How the data were processed

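The deposited matrices hold raw UMI counts per gene and cell barcode and are the authors' output of Cell Ranger, version 5.0.1 according to the header lines. The submitters' processing notes name mm10 and Seurat 4.0 without their role. The deposited matrices hold 14696 barcodes in all. Cells with at least 1000 UMIs, at least 500 genes and a mitochondrial share of 10% or less entered the sums, 13468 altogether. How the study itself filtered cells was not found in the labels. No cluster was left out and no doublet caller was run; leaving out the 2% of cells with most UMIs was 1 alternative.

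UMI counts were summed per library, scaled by TMM (factors 0.99 to 1.02), filtered by edgeR's default and tested with edgeR 4.0.16 (quasi-likelihood, KO against WT, no replicate block, R 4.3.3), with Benjamini-Hochberg adjustment over 14474 genes and a threshold of 0.05. DESeq2 1.42.0 was an alternative. The biological coefficient of variation was 7.84%. CPM are counts scaled to a common TMM-adjusted total, not divided by transcript length. Isoform shares and the ratio of mitochondrial to nuclear members set CPM of different genes against each other, so only their differences between libraries are read, not their size. Thinning drew 5000 UMIs per cell (seed 1), which left out 150 and 169 cells of KO 1 and KO 2, and 197 and 162 of WT 1 and WT 2. The test was checked on simulated counts. Positions and transcript lengths are from GENCODE M21 (GRCm38) and start regions from RefSeq.

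The members and the lists were chosen with earlier results of these data known. The text names all mitochondrial members, isoform families, the 12 largest called nuclear differences, the 3 smallest p per complex and per list, and others after their values were seen. Replicate numbers are not said to mark a shared litter or day, and same-numbered libraries did not deviate together (r = -0.003 over 5743 genes).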

Additional observations from a re-analysis of the deposited data

How the results depend on the processing

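The count of 13 nuclear members called higher was 27 with no filter on low counts and 25 with DESeq2. Leaving out 1 library moved it in both directions. It fell without KO 1 and without either WT library, and rose only without KO 2. Over all genes, 1327 of 14474 were called higher in the main fit, 1972 of 21103 with no filter and 1144 of 14474 with DESeq2. The single nuclear member called lower became 0 with a replicate block and with any 1 library left out. The 3 mitochondrial members called lower became 6 with no filter, and leaving out 1 library gave 0 to 6. Leaving out 1 library moved the log2 ratio of summed CPM between 0.109 and 0.190 for nuclear members and between -0.293 and -0.0383 (without WT 1) for mitochondrial members. The causes were not tested. With a replicate block 13 nuclear members were higher, 3 mitochondrial members lower, and 1523 genes higher and 1751 lower over all; the pairing of numbers is a label only, and among the named genes the block ended the calls of Ndufb3 (adjusted p = 0.0619), Atp5f1 (adjusted p = 0.0903), Ndufa7 (adjusted p = 0.0634), Uqcc2 and Mdh2, and brought Cox6a1 and Ndufv3 past the threshold.

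In the 11 fits that kept all libraries, nuclear sums of all 5 complexes were higher in both KO libraries, and mitochondrial sums in total and of complexes IV and V were lower. These 11 are not independent. They include the main fit and the replicate block, which leaves the sums unchanged, and some others only rescale the same counts. Of the other single values recomputed, 1142 kept their call or stayed within the spread between libraries, 77 lost a call, 25 gained one, 20 moved by more than that spread, and none that was called changed sign. Uncalled values of mt-Nd2, mt-Nd4, mt-Nd5, mt-Cytb, Atp5g1 and Sdhd, the Cox4i2 and Cox6a2 shares and the mitochondrial complex III sum (0.11 without WT 1) changed sign in at least 1 alternative. With 2 libraries per genotype, differences near the threshold cannot be ordered, and mitochondrial results depend on WT 1.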
